A study of Drosophila melanogaster with 34 samples.

Results

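Wide Crol peaks of S2 cells were the subject of the comparison: regions of the S2 Crol peak list that spanned at least 1500 bp on chromosome 4 or on one of the long arms X, 2L, 2R, 3L and 3R (dm3 assembly). The regions were chosen by their S2 peak width, and 951 of the 9593 S2 Crol peaks on these arms passed. They were then compared with 4 peak lists from tissue, for Crol and for Combgap (Cg) in brains and imaginal discs of 3rd instar larvae that were wild-type (WT) or labelled as knockout of crol (crol-KO). Width, fold enrichment and all other values of the S2 list are therefore given as a description, whereas the larval lists had no part in the choice.

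The series held 34 samples, of which 10 stood behind these 5 lists, 2 replicate libraries per list. Crol was precipitated with the antibody CrolN, raised against the N-terminal part of the protein, in both genotypes and in S2 cells, and Cg with an antibody from earlier published work. The crol-KO allele was made with CRISPR/Cas9 and homologous recombination, which put a DsRed marker into the locus, and the study notes that Crol supplied by the mother may persist in these larvae, so crol-KO need not mean that Crol was absent. The S2 libraries are named as S2 cells in their titles, while their tissue label names larval tissue, and the titles were used here. S2 is a cultured Drosophila line of embryonic origin. The reads of both replicates were pooled before peaks were called, so each group gave 1 list and no comparison between tissues, proteins or genotypes had a replicate check. Lists without replicates allow no test between groups, and the 95% intervals beside the shares (exact, Clopper-Pearson) cover counting error only and treat neighbouring peaks as independent.

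Polycomb group proteins keep developmental genes silent, and in Drosophila they are brought to DNA at Polycomb response elements by proteins that bind DNA directly. Crol (Crooked legs) and Cg are both zinc finger proteins, and Cg is known for its association with Polycomb response elements and with a Polycomb complex, PRC1. A peak in such a list is a continuous run of bases where the reads from the precipitated chromatin exceed a local background, and its summit is the base with the highest pileup of reads. A wide run may hold several summits or a single broad one, and the list names 1 summit for each peak.

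The wide regions made up 9.91% of the S2 peaks and 26.5% of the bases these peaks covered, 2.08 of 7.86 Mb. Their width ranged from 1500 to 8863 bp with a median of 1933 bp. Of the 951 regions, 114 reached 3000 bp, 31 reached 4000 bp and 12 reached 5000 bp, so most lay close to the minimum. Just inside it were regions of 1500, 1502 and 1502 bp with S2 fold enrichments of 15.3, 9.90 and 13.0. Just outside it were peaks of 1499, 1498 and 1498 bp with values of 19.0, 9.97 and 16.2. Neither set stood apart from the other in strength, and the minimum separates neighbours in a continuous range of widths. Peaks this wide took 3.58% of the WT Crol list, 4.26% of the crol-KO Crol list, 2.46% of the WT Cg list and 3.76% of the crol-KO Cg list. These lists rested on fewer reads, between 3.42 and 4.89 M as worked out from the values of their peaks, against 5.77 M in S2 cells, and the part of depth in the widths was not tested.

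Wide regions were also the stronger ones. The fold enrichment, the authors' ratio of the summit pileup to the local background, had a median of 8.49 (quartiles 6.22 and 12.1) in wide regions and of 4.38 (3.11 and 6.30) in narrower S2 peaks. The median pileup at the summit was 216 and 95 reads, while the median local background was 23.6 and 20.5 reads. The difference in strength thus came with the higher pileup, whereas a higher background lowers this ratio. When all S2 peaks were divided into quintiles by fold enrichment, 553 wide regions (58.1%) lay in the highest quintile, 255 in the next, 93 and 43 in those below and 7 in the lowest. Over the 951 wide regions, width and fold enrichment were related with a Spearman rho of 0.286, and over all 9593 S2 peaks with 0.649, both being values of the same library. The summit lay in the central part of the region, between 33.3% and 66.7% of its length, in 37.2% of wide regions and in 79.1% of narrower peaks. Summits of wide regions were thus spread more broadly along the length, with quartiles at 27.8% and 71.4% of it, against 42.4% and 56.8% in narrower peaks.

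Most wide regions held a peak of every larval list. A WT Crol peak overlapped 796 of the 951 regions by at least 1 bp, which is 83.7% (81.2 to 86.0), against 55.4% (54.3 to 56.5) of narrower S2 peaks and 58.2% of all S2 peaks. For crol-KO Crol the count was 784, or 82.4% (79.9 to 84.8), against 59.8% of narrower peaks and 62.0% of all. Cg peaks were found nearly as often as those of Crol. In WT, 758 regions held a Cg peak, 79.7% (77.0 to 82.2), against 56.5% of narrower and 58.8% of all S2 peaks. In crol-KO, 766 did, 80.5% (77.9 to 83.0), against 60.1% and 62.1%. Peaks of all 4 larval lists were present in 726 regions, 76.3% (73.5 to 79.0), where 49.9% of all S2 peaks had them. No larval peak was present in 130 regions, 13.7% (11.5 to 16.0), where the share over all S2 peaks was 30.5%. A wider region overlaps more peaks by its width alone, so these shares do not compare wide and narrower peaks on equal terms.

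A measure that does not grow with the width is whether the summit base of the S2 peak lay inside a larval peak. By this measure the shares at wide regions were lower than by overlap. The WT Crol list covered the summit of 724 wide regions, 76.1% (73.3 to 78.8), against 53.6% (52.5 to 54.6) of narrower S2 peaks and 55.8% of all. The crol-KO Crol list covered 72.2% (69.3 to 75.1), against 57.6% of narrower and 59.0% of all S2 summits. The Cg lists covered somewhat fewer of the wide regions' summits. The share was 67.7% (64.6 to 70.7) for WT Cg, against 54.5% of narrower and 55.8% of all, and 68.0% (65.0 to 71.0) for crol-KO Cg, against 57.7% and 58.8%. All 4 lists covered the summit in 61.6% (58.4 to 64.7) of wide regions, with 46.2% over all S2 peaks, and no list covered it in 19.9% (17.4 to 22.6), with 32.7% over all.

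Among S2 peaks of similar strength, wide and narrower ones had similar shares in the upper part of the list. In the highest quintile of S2 fold enrichment, from 7.64 upwards, the WT Crol list covered the summit of 85.2% (81.9 to 88.0) of 553 wide regions and of 81.3% (79.1 to 83.3) of 1366 narrower peaks. The corresponding shares were 77.9% and 77.7% for crol-KO Crol, 73.2% and 72.6% for WT Cg, and 72.7% and 75.3% for crol-KO Cg, with intervals that overlapped, also for WT Crol. In the next quintile the wide regions were at or below the narrower peaks, 72.2% and 73.7% for WT Crol, 71.4% and 74.6% for crol-KO Crol, 67.5% and 71.6% for WT Cg, and 66.3% (60.1 to 72.1) and 74.0% (71.8 to 76.1) for crol-KO Cg. The intervals overlapped for each list there as well. Strength of the S2 peak therefore moved with the larval shares, and within these quintiles the differences between wide and narrower peaks were smaller than over the whole list and went both ways. The differences themselves were not tested. In the second-lowest quintile, where 43 wide regions lay, the WT Cg list covered 30.2% (17.2 to 46.1) of wide and 47.8% (45.5 to 50.0) of narrower summits, and the other lists also covered fewer summits of wide regions there, with overlapping intervals for each list.

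**Figure D1:**
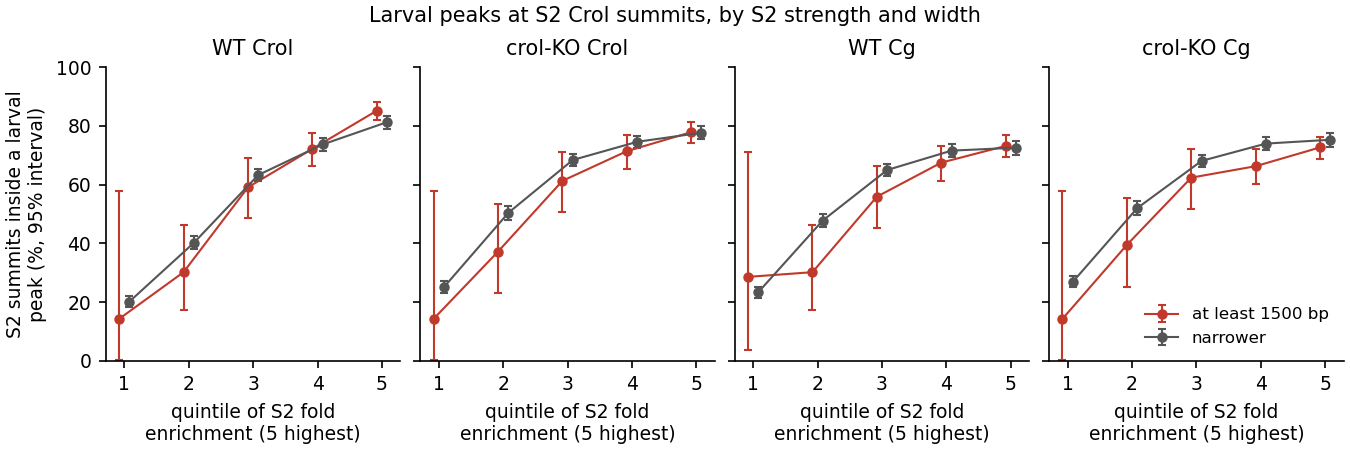
Share of S2 Crol summits inside a larval peak (%, y axis) by quintile of S2 fold enrichment (x axis, 5 the highest), 1 panel per larval list, with wide regions in red, narrower S2 peaks in grey and exact 95% intervals as bars. Shares climb with strength in each panel and the red and grey points lie close together in the upper 2 quintiles, as in the highest for crol-KO Crol at 77.9% and 77.7%.

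Over all wide regions together, the order of the Crol lists was turned. Among narrower S2 peaks the WT Crol list covered fewer summits than the crol-KO Crol list, 53.6% (52.5 to 54.6) against 57.6% (56.5 to 58.6), although the WT list was the longer of the 2 lists, with 10139 peaks against 9883. Among wide regions it covered more, 76.1% against 72.2%. Both lists were measured on the same summits, so their separate intervals do not measure these differences, which were not tested. In the highest quintile of S2 strength the WT list was ahead in wide regions, 85.2% (81.9 to 88.0) against 77.9% (74.2 to 81.3), and in narrower peaks, 81.3% against 77.7%. The lead of the WT list was thus found in the highest quintile of both width classes. In wide regions of the next quintile the shares were close, 72.2% and 71.4%. In the middle and second-lowest quintiles the crol-KO list was ahead there, 61.3% against 59.1% and 37.2% against 30.2%. In the lowest, with 7 wide regions, both shares were 14.3%. Cg showed no such lead, with 73.2% in WT and 72.7% in crol-KO at wide regions of the highest quintile. The WT and crol-KO lists differed in depth, by 4.24 and 4.89 M reads for Crol and by 3.42 and 3.57 M for Cg, and the part of depth was not tested.

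Many wide regions were resolved into several peaks in the larval lists. Altogether 4235 larval peaks of the 4 lists fell in the 951 regions. With a crol-KO Cg peak that touched a pair of regions counted in each, there were 1105 of WT Crol, 1057 of crol-KO Crol, 1044 of WT Cg and 1030 of crol-KO Cg. Means per region were 1.16, 1.11, 1.10 and 1.08 in that order, against 0.565, 0.607, 0.575 and 0.610 per narrower S2 peak. At least 2 peaks of WT Crol fell in 272 regions, 28.6% (25.7 to 31.6), a share of 3.85% over all S2 peaks. The other lists gave similar shares. At least 2 peaks were present in 25.0% of regions for crol-KO Crol (3.33% over all S2 peaks), in 26.3% for WT Cg (3.52%) and in 24.0% for crol-KO Cg (3.15%). Up to 4 peaks of 1 list were found in a region, except for a single region with 5 peaks of WT Cg. No narrower S2 peak held more than 2 peaks of a list. Narrower S2 peaks had a median width of 579.5 bp, which leaves little room for 2 larval peaks. These means and shares thus do not compare wide regions and other S2 peaks on equal terms.

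**Figure D2:**
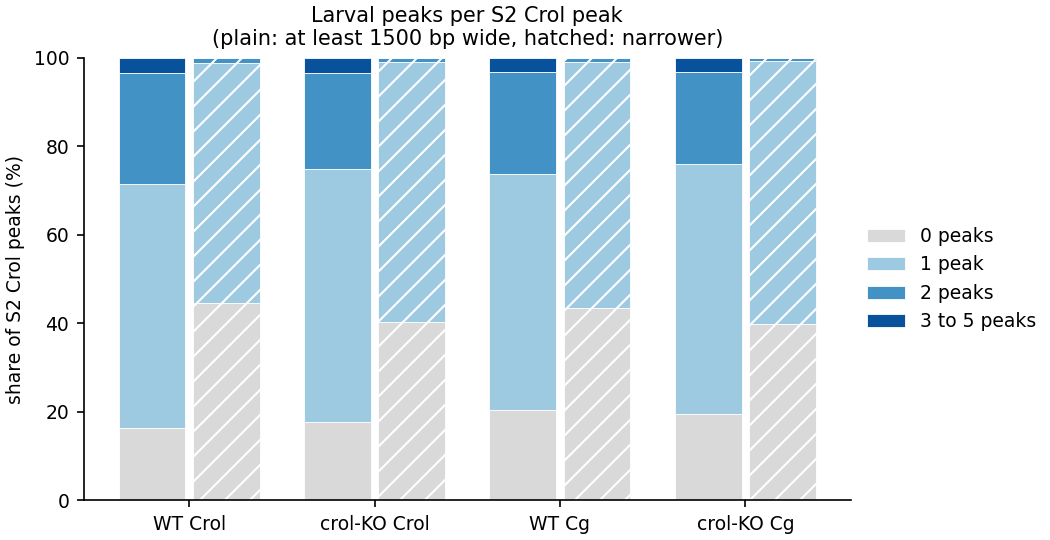
Share of S2 Crol peaks (%, y axis) that held 0, 1, 2 or 3 to 5 larval peaks (shades of the bars) of each larval list (x axis), plain for the 951 wide regions and hatched for the 8642 narrower peaks. Between 24.0% and 28.6% of wide regions held at least 2 peaks of a list, while 0.856% to 1.12% of narrower peaks did. Narrower peaks leave less room for 2 larval peaks.

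The number of larval peaks grew with the width of the region, less than in proportion. Regions under 2000 bp (n = 530) held on average 0.989 WT Crol peaks (0.906 to 1.08, Poisson 95% interval), those from 2000 to under 3000 bp (n = 307) held 1.22 (1.10 to 1.35) and those of 3000 bp or more (n = 114) held 1.82 (1.58 to 2.08). For WT Cg the means were 0.968, 1.12 and 1.63. Per kb of region the WT Crol summits decreased, from 0.570 to 0.500 and 0.469, and the WT Cg summits from 0.557 to 0.459 and 0.419. Narrower S2 peaks held 0.809 WT Crol and 0.833 WT Cg summits per kb. Wider regions thus held more peaks of each list, at a lower density of summits. Since a wider region overlaps more peaks by its width alone, these means and densities do not compare the width classes on equal terms. The share of bases covered in these width classes was 51.2%, 49.5% and 51.3% for WT Crol peaks, and 46.3%, 42.3% and 41.8% for WT Cg peaks. Larval peaks of WT Crol covered 50.6% of the bases in wide regions, those of crol-KO Crol 51.1%, those of WT Cg 44.0% and those of crol-KO Cg 47.7%, so about as many bases of these regions lay outside the larval peaks of a given list as inside. S2 fold enrichment also differed between these width classes, with medians of 7.57, 9.35 and 11.4.

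**Figure D3:**
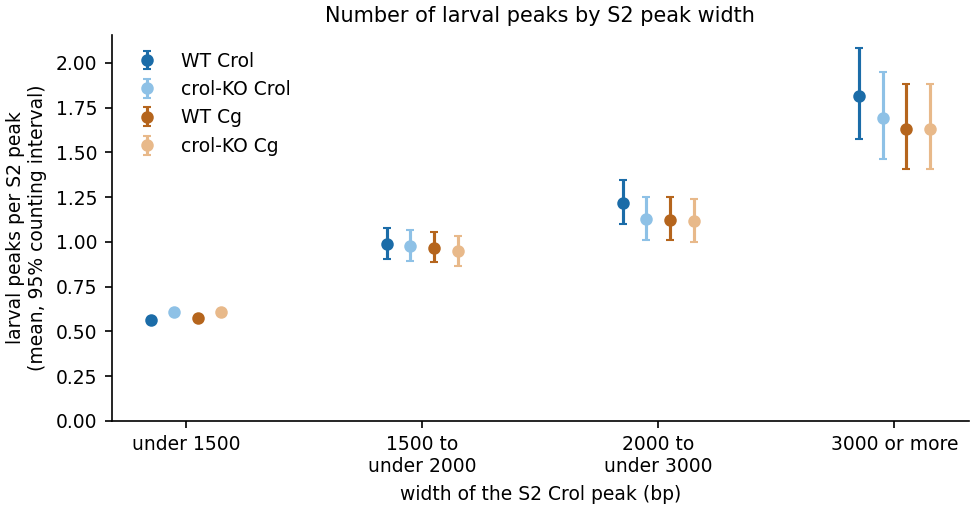
Mean number of larval peaks per S2 Crol peak (y axis) by width of the S2 peak (bp, x axis), 1 colour per larval list, with Poisson 95% counting intervals as bars. The means climb from between 0.565 and 0.610 in narrower peaks to between 1.63 and 1.82 in regions of 3000 bp or more. A wider S2 peak overlaps more larval peaks by its width alone.

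Crol and Cg, and both genotypes, mostly gave the same number of peaks in a region. All 4 lists had the same number in 540 regions (56.8%), which were 130 with none, 337 with exactly 1, 70 with exactly 2 and 3 with exactly 3 peaks in each list. At least 2 peaks in each of the 4 lists were found in 117 regions (12.3%), and in 10 narrower S2 peaks (0.116%). For Crol, WT and crol-KO agreed in number in 699 regions, WT had more in 147 and crol-KO had more in 105. For Cg the numbers were 746, 111 and 94. In WT, Crol and Cg agreed in 687 regions, Crol had more in 156 and Cg in 108. Differences in number therefore went both ways in each of these pairs, with more regions on the side of WT and on the side of Crol. Counted by presence, the WT lead held for Crol, with a WT and no crol-KO peak in 32 regions and the reverse in 20. For Cg the order by presence was the other way, with 20 and 28 regions. In WT, 49 regions held a Crol and no Cg peak, and 11 the reverse. In number of peaks, narrower S2 peaks had the opposite order. More WT Crol peaks were found in 411 and more crol-KO Crol peaks in 772. More WT Cg was found in 276 and more crol-KO Cg in 568, and, in WT, more Crol in 587 and more Cg in 678.

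Peaks in some lists and not in others were found in 95 wide regions, 9.99% (8.16 to 12.1), against 20.7% (19.8 to 21.5) of narrower S2 peaks. WT Crol alone was present in 19 regions (2.00%, against 2.29% of narrower peaks), WT Cg alone was missing in 19 (2.00% against 2.40%), and Crol was present in both genotypes without any Cg in 10 (1.05% against 1.18%). These patterns were thus about as frequent as in narrower peaks. Taken by protein, a Crol peak in at least 1 genotype and no Cg peak was found in 35 regions, 3.68% (2.58 to 5.08) against 5.00% (4.55 to 5.48), and the reverse in 5 regions, 0.526% (0.171 to 1.22) against 3.83% (3.44 to 4.26). Taken by genotype, 28 regions had peaks in WT lists and no crol-KO list, 2.94% (1.97 to 4.23) against 3.75% (3.36 to 4.17), and 14 had peaks in crol-KO lists and no WT list, 1.47% (0.807 to 2.46) against 5.00% (4.55 to 5.48). Of these groupings by protein and by genotype, those without a Crol peak and those without a WT peak were thus rarer in wide regions. WT Crol alone was missing in 5 wide regions, 0.526% against 4.62% of narrower peaks, so this pattern was rarer as well. Wide regions overlap more peaks by their width alone and were stronger in S2 cells. The shares of these patterns thus do not compare wide and narrower peaks on equal terms. The strongest region with peaks of both WT lists and of neither crol-KO list was chr2R:14415903-14418861, with an S2 fold enrichment of 15.2. Its WT Crol peaks had summit pileups of 230 and 38 reads, and its WT Cg peak one of 118 reads. The larger Crol summit lay 8 bp and the Cg summit 45 bp from the S2 summit, and the nearest crol-KO summits were 3329 bp (Crol) and 3272 bp (Cg) away. The strongest region with a WT Crol peak alone, chr2L:13569555-13573105 with an S2 value of 26.1, held that peak 1835 bp from the S2 summit.

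Where a wide region held a larval peak, its S2 summit was often matched closely. The nearest larval summit lay at a median of 57 bp for WT Crol, 99.5 bp for crol-KO Crol, 99 bp for WT Cg and 120 bp for crol-KO Cg. In narrower S2 peaks with a larval peak these medians were 37 to 40 bp. WT Crol summits were within 100 bp in 63.2% of wide regions with a WT Crol peak, and crol-KO Crol summits in 50.1%, WT Cg in 50.8% and crol-KO Cg in 45.2%. WT Crol therefore stood closest to the S2 summits, and in narrower peaks all 4 lists were between 77.5% and 79.9%. A wider region leaves room for larger distances, so these medians and shares do not compare wide and narrower peaks on equal terms. Of all larval summits inside wide regions, 40.0% (WT Crol) to 44.5% (crol-KO Cg) lay more than 500 bp from the S2 summit. In regions with at least 2 summits of a list, the outermost summits were a median of 1141 bp apart for WT Crol, 1242 bp for crol-KO Crol, 1046 bp for WT Cg and 1223.5 bp for crol-KO Cg.

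**Figure D4:**
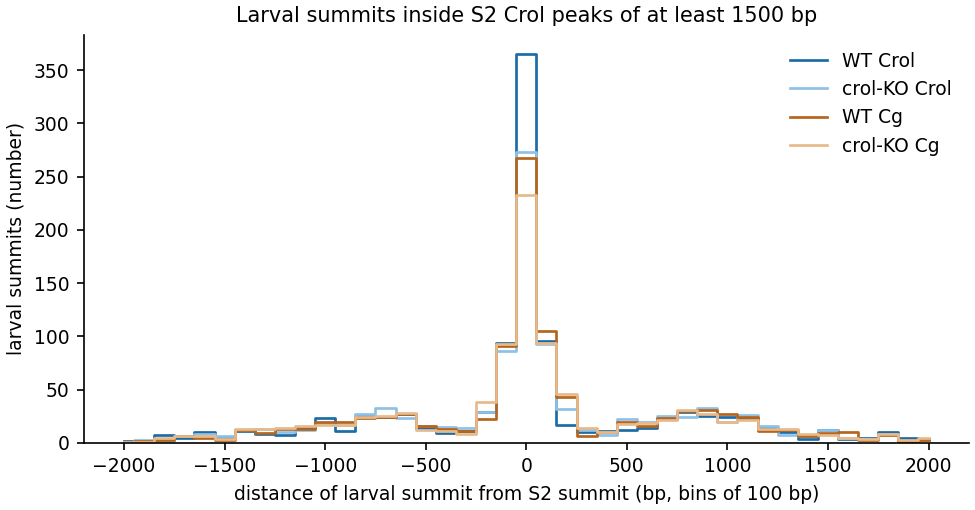
Number of larval summits (y axis) inside wide regions by distance from the S2 summit (bp, x axis, bins of 100 bp), 1 line per larval list. Each line has a narrow maximum at 0, highest for WT Crol, and low shoulders on both sides, where the 40.0% to 44.5% of summits farther than 500 bp from the S2 summit lie.

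The 5 widest regions all held peaks of each list. The widest of all, chrX:12642659-12651521, spanned 8863 bp with an S2 fold enrichment of 16.5 (rank 189 in the list) and a summit pileup of 791 reads. It held 4 WT Crol peaks, 4 of crol-KO Crol, 4 of WT Cg and 3 of crol-KO Cg. Nearest to the S2 summit lay larval summits at 37, 13, 22 and 4 bp in that order. A separate group of summits lay 4536 to 4839 bp to the lower-coordinate side in all 4 lists, and there the pileups were higher, 185 reads for WT Crol, 203 for crol-KO Crol, 94 for WT Cg and 149 for crol-KO Cg, against 158, 49, 48 and 44 reads at the S2 summit. The strongest larval summit in this region was thus not the one at the S2 summit in any list.

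The next widest, chr3R:19156945-19163616, spanned 6672 bp with a lower S2 value of 6.02 and a high local background of 65.9 reads. It held 2, 3, 2 and 3 peaks of WT Crol, crol-KO Crol, WT Cg and crol-KO Cg. Both lists from crol-KO larvae had a summit about 1 kb from the S2 summit, at 1049 bp for Crol and 1115 bp for Cg, where no WT list had a separate summit. The WT Crol peak nearest the S2 summit, 1455 bp wide, extended over this position. On 2L, chr2L:8082610-8088894 spanned 6285 bp (S2 value 13.7) and held 2, 1, 2 and 2 peaks. Here crol-KO Crol had its summit 983 bp from the S2 summit, whereas the nearest summit was at 37 bp for WT Crol, 102 bp for WT Cg and 196 bp for crol-KO Cg. Both WT lists covered the S2 summit base in this region and neither crol-KO list did. On 2R, chr2R:9220164-9226397 spanned 6234 bp (S2 value 15.2) and held 3, 2, 2 and 2 peaks, and each list had a summit 690 to 764 bp from the S2 summit. The last of the 5, chrX:1510692-1516743, spanned 6052 bp (S2 value 19.5) and held 4, 3, 2 and 3 peaks. In all 4 lists its strongest summit was the one near the S2 summit, at 41 to 119 bp, with a weaker one 4875 to 4997 bp away.

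The largest number of larval peaks, 15, was found in chr2L:246557-251360, which spanned 4804 bp and ranked 9 in the S2 list with a fold enrichment of 28.0. It held 3 WT Crol, 3 crol-KO Crol, 5 WT Cg and 4 crol-KO Cg peaks. Each list had a summit 2556 to 2611 bp from the S2 summit. Another 15 peaks lay in the widest region on X described above, and 15 in chr3L:13994744-14000309, 5566 bp wide with an S2 value of 11.2. That region on 3L held 4, 3, 4 and 4 peaks, with a WT Crol summit on the very base of the S2 summit. The missing crol-KO Crol peak there was not a gap: a single peak of 3018 bp took the place of what were 2 peaks in each of the other lists. Counts of peaks in a region thus depend on whether neighbouring summits were joined.

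The strongest S2 peak of the whole list was a wide region without any larval peak. It was chr3L:4413571-4416290, 2720 bp wide, with an S2 fold enrichment of 34.7 and a summit pileup of 569 reads over a background of 15.4. The nearest larval summits were 4307 to 4518 bp away in the 4 lists. The next strongest, chrX:9476535-9480306 with an S2 value of 32.2 and 495 reads, held 2, 2, 2 and 1 peaks of WT Crol, crol-KO Crol, WT Cg and crol-KO Cg. Its nearest larval summits were at 17, 77, 68 and 127 bp, with pileups of 244, 141, 98 and 116 reads. In this region crol-KO Cg had a single peak of 2471 bp across the positions where the other lists had a pair of peaks. The remaining regions among the 5 strongest, on X (chrX:13289893-13291484, S2 value 28.3) and on 2L (chr2L:14023576-14025972, 27.5, and the region with 15 peaks above), all had peaks of each larval list. In the X region both WT lists had a summit close to that of S2 cells, at 23 bp (Crol) and 21 bp (Cg), while the nearest crol-KO summits were at 729 and 709 bp. The crol-KO Crol peak there was a single one of 1081 bp that also covered the S2 summit base, and the crol-KO Cg peak did not cover it.

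The 130 wide regions without a larval peak were weaker than the rest as a group, with a median S2 fold enrichment of 6.30 against 8.87 in regions with all 4 lists, but their range reached to the top of the list. Their widths were similar, with medians of 1857 and 1962 bp. The widest of them were chr2L:13071419-13075756 (4338 bp, S2 value 6.16), chr3L:1377722-1381701 (3980 bp, 13.6) and chrX:2227850-2231692 (3843 bp, 14.5). For the one on 2L the nearest larval summits were 14527 to 14727 bp away. Over the 130 regions the nearest larval summit of any list lay at a median of 3440 bp from the S2 summit (924 to 19015 bp), and 87 of them (66.9%) had one within 5 kb. Narrower S2 peaks without a larval peak were somewhat closer to one, with a median of 2796 bp and 71.8% within 5 kb. A region without a larval peak has no larval summit along its whole length, so these distances do not compare wide and narrower peaks on equal terms.

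Larval peaks inside wide regions were wider and stronger within their own lists than other larval peaks. The 1105 WT Crol peaks in wide regions were 10.9% of their list and had a median width of 802 bp, against 521 bp for those in narrower S2 peaks and 490 bp for those outside S2 peaks. By fold enrichment their median stood at percentile 65.2 of the WT Crol list, against 57.2 and 38.5. For crol-KO Crol the median widths were 876, 559 and 492.5 bp and the percentiles 64.1, 59.4 and 33.2. WT Cg was the exception in strength: its percentile in wide regions, 59.8, was close to that in narrower S2 peaks, 59.7, and both were above the 31.4 outside. For crol-KO Cg the percentiles were 64.2, 60.4 and 29.0. Of the 363 WT Crol peaks that were themselves at least 1500 bp wide, 208 (57.3%, 52.0 to 62.4) fell in a wide S2 region, and so did 54.9% of 421 such peaks of crol-KO Crol, 65.5% of 220 of WT Cg and 58.9% of 350 of crol-KO Cg. Those took 15.1% (WT Cg) to 24.2% (crol-KO Crol) of the wide S2 regions, so most regions that were wide in S2 cells were not wide in a given larval list.

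Between genotypes, larval peaks in wide regions were kept about as often as those in narrower S2 peaks and more often than those outside S2 peaks. A peak was counted as kept when any called peak of the other genotype shared at least 1 bp, whatever its pileup. The crol-KO lists were also deeper, 4.89 against 4.24 M reads for Crol and 3.57 against 3.42 M for Cg. The part of depth was not tested. Of WT Crol peaks in wide regions, 1011 of 1105 overlapped a crol-KO Crol peak, 91.5% (89.7 to 93.1), against 92.6% in narrower S2 peaks, 65.9% outside and 81.4% over the list. Of WT Cg peaks in wide regions, 95.4% (94.0 to 96.6) overlapped a crol-KO Cg peak, against 95.5%, 77.5% and 89.4%. In each place the kept share was higher for stronger larval peaks. In the lowest quintile of WT Crol fold enrichment 77.6% (70.2 to 84.0) of those in wide regions were kept, against 82.6% (79.7 to 85.3) in narrower S2 peaks and 47.8% outside, and in the highest quintile 98.6%, 98.8% and 89.2%. At both ends of the range, WT Crol peaks inside S2 peaks were thus kept more often than those outside, while the intervals of wide and narrower S2 peaks overlapped.

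In the opposite direction wide and narrower S2 peaks differed for Crol. Of crol-KO Crol peaks, 92.9% (91.2 to 94.4) of those in wide regions overlapped a WT Crol peak, against 85.9% (84.9 to 86.8) in narrower S2 peaks and 74.2% outside. Among the weakest quintile of crol-KO Crol peaks the shares were 68.3% (60.0 to 75.9), 52.6% (48.6 to 56.6) and 55.7%, and in the next quintile 86.6% (79.9 to 91.7), 69.8% (66.7 to 72.7) and 68.3%. In the strongest 2 quintiles the shares in wide and narrower S2 peaks were between 96.6% and 100%. For Cg the shares were close to each other, 91.6% (89.8 to 93.3) of crol-KO Cg peaks in wide regions and 89.9% (89.0 to 90.7) in narrower S2 peaks, with 71.6% (63.8 to 78.6) and 60.7% (56.5 to 64.7) in the weakest quintile and 80.0% and 79.1% in the next. Between proteins, of WT Cg peaks in wide regions 96.1% (94.7 to 97.2) overlapped a WT Crol peak, against 87.0% in narrower S2 peaks, and in the weakest quintile 83.9% (77.2 to 89.2) against 63.6% (59.6 to 67.5). Turned around, 86.3% (84.2 to 88.3) of WT Crol peaks in wide regions overlapped a WT Cg peak, against 89.1% (88.1 to 89.9) in narrower S2 peaks. In the weakest quintile of WT Crol peaks the shares were 57.9% (49.6 to 65.8) and 73.9% (70.6 to 77.0), and in the strongest 98.6% and 98.7%. Larval peaks in wide regions were wider, as given above, which by itself raises the chance of an overlap by 1 bp, and its part in these shares was not tested.

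Wide regions were spread over all arms in about the proportions of all S2 peaks. There were 170 on X (10.2% of its S2 peaks, 8.77 to 11.7), 168 on 2L (9.33%), 195 on 2R (10.3%), 214 on 3L (10.7%), 196 on 3R (9.10%, 7.92 to 10.4) and 8 on chromosome 4 (9.52%, 4.20 to 17.9), with overlapping intervals. Per Mb between the outermost peaks of any list, 2R held 9.23, 3L 8.73, X 7.59, 2L 7.31, 3R 7.03 and chromosome 4 6.59. The widest regions on the arms not named so far were chr3L:625741-631461 (5721 bp, S2 value 9.50, local background 104 reads) and chr4:79113-81648 (2536 bp, S2 value 7.48). The first of these held 3, 3, 2 and 3 peaks of WT Crol, crol-KO Crol, WT Cg and crol-KO Cg, and the second held 2 of each list. On chromosome 4 each list had 1 summit within 53 bp of the S2 summit and another 1000 to 1121 bp away, so the 4 lists gave the same pair of positions.

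The share of wide regions with larval peaks differed between arms. All 4 lists had a peak in 82.6% (76.5 to 87.6) of the wide regions on 2R, 81.8% (75.1 to 87.3) on X, 75.6% on 2L, 74.5% on 3R and 68.2% (61.5 to 74.4) on 3L, and in 7 of the 8 on chromosome 4. No larval peak was found in 20.1% (14.9 to 26.1) on 3L and in 7.69% (4.37 to 12.4) on 2R, with 10.0% on X, 14.3% on 2L and 15.8% on 3R. On chromosome 4 it was 0 of 8 regions, which allows a share of up to 36.9% by the exact interval. The intervals of 3L and 2R, picked as the extremes of the long arms after their values were seen, did not overlap for either share. Among narrower S2 peaks the shares without a larval peak were 35.0% on 3L and 30.0% on 2R. The median S2 fold enrichment of wide regions was 9.03 on 3L and 8.06 on 2R, and the part of strength in these shares was not tested.

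On 4 of the 5 long arms, wide regions were fewest next to the centromere. Each long arm was divided into 10 equal parts between the outermost peaks of any list, numbered in the direction of the coordinates. The 50 parts held between 5 and 35 wide regions, with a median of 18, and none was empty. In dm3 the centromere lies at the high-coordinate end of X, 2L and 3L and at the low-coordinate end of 2R and 3R. The part next to it held 5 regions on X, 6 on 2R, 6 on 3L and 10 on 3R, the lowest count of each of these arms, whereas on 2L it held 15 and the lowest count, 9, was in part 2. All S2 peaks were also fewest in these parts on X, 2R and 3L, with 94, 99 and 46 peaks, but not on 3R, with 206, nor on 2L, with 133. The share of S2 peaks that were wide was below that of the arm next to the centromere of X (5.32% against 10.2%), 2R (6.06% against 10.3%) and 3R (4.85% against 9.10%). It was above it on 3L (13.0% against 10.7%) and on 2L (11.3% against 9.33%), and these shares rest on 5 to 15 wide regions each. The highest counts were 35 in part 2 of 3L, where 15.2% of the S2 peaks were wide, 32 in part 4 of 3L and 32 in part 5 of 2R. Over the 50 parts the counts of wide regions and of all S2 peaks were related with a Spearman rho of 0.641, the first being contained in the second.

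**Figure D5:**
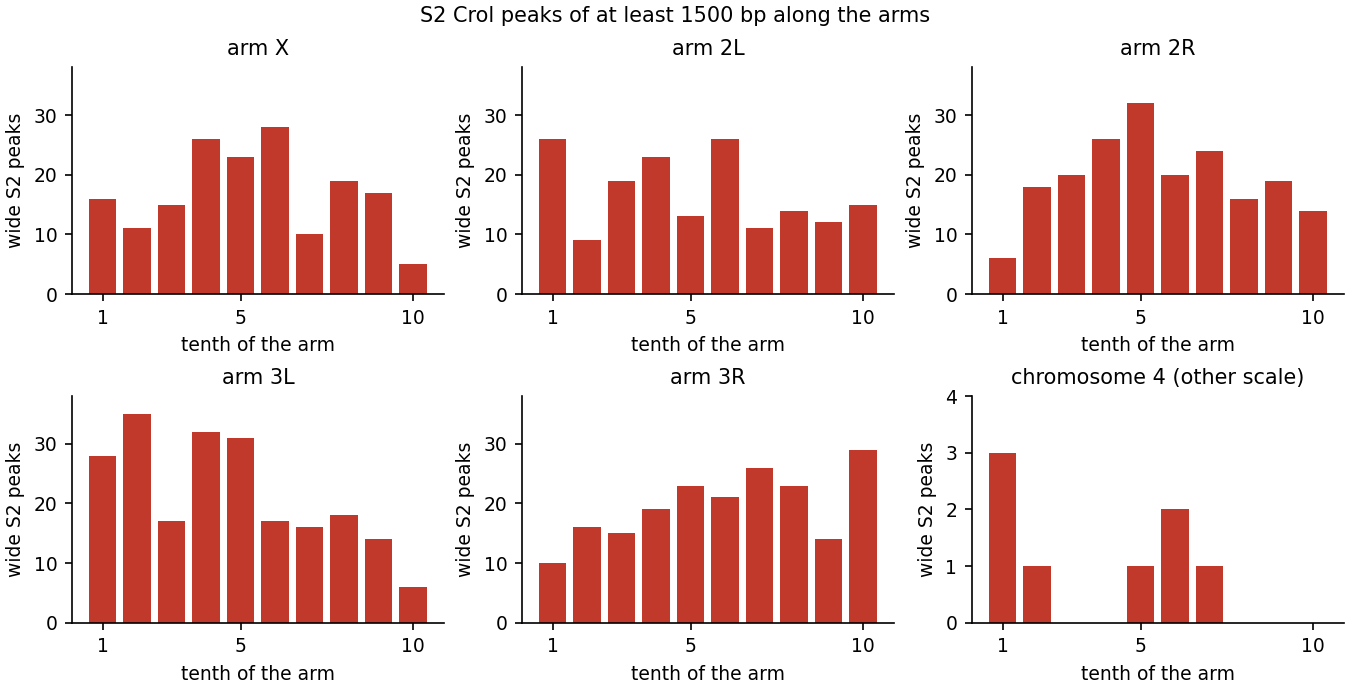
Number of wide S2 Crol regions (y axis) in each of 10 equal parts of an arm (x axis, numbered in the direction of the coordinates), 1 panel per arm, with a separate scale for chromosome 4. The parts range from 5 regions at the high-coordinate end of X to 35 in part 2 of 3L.

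Some wide regions lay close together. The nearest other wide region was at a median distance of 21191 bp between summits (quartiles 6973 and 67489 bp), and 323 regions (34.0%) had one within 10 kb. The smallest distance was 839 bp. Any S2 peak had its nearest S2 neighbour at a median of 2576 bp. The densest window of 100 kb began at chrX:13196076 and held 8 wide regions, 1521 to 2663 bp wide, among 29 S2 peaks, with 7 WT Crol, 6 crol-KO Crol, 7 WT Cg and 5 crol-KO Cg peaks in them. It included the region of rank 7 named above (S2 value 28.3), and 4 of the 8 regions had a peak in all 4 lists. Its first region, chrX:13196076-13197596 (S2 value 21.2), was the strongest of the 10 regions with Crol in both genotypes and no Cg peak. Windows with 7 wide regions each began at chr2R:6417760 and chr2R:9812341, where 6 of the 7 had peaks of all 4 lists, and at chrX:12552795, where 4 of the 7 did and which held the widest region of all. The longest stretch between neighbouring wide regions was chrX:19788271-20924064, 1135794 bp, in which 41 narrower S2 peaks were listed.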

How the data were processed

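Crosslinked chromatin of S2 cells and of larval brains and imaginal discs was precipitated with antibodies to Crol or Cg, and 10 of the 34 samples stood behind the 5 lists used here. Groups follow the sample titles, and the other 24 samples were not used. According to the study's methods and the submitters' processing notes, Trim Galore (version 0.6.5) was used for trimming, Bowtie2 (2.3.5) for alignment to dm3 and SAMtools (1.13) to remove duplicates. The authors then merged the 2 replicates and ran MACS2 (2.2.5) for narrow peaks at a q-value of 0.05 with reads extended to 300 bp. The control used for peak calling is not given in the sources used here. Each deposited list gives the authors' score, their fold enrichment (a ratio of pileup to local background at the summit), and their −log10 p-value and −log10 q-value. Peak numbers were skipped in the lists, 342 in the S2 list and 332 to 357 in the larval ones, and those peaks were not analysed here.

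The width of a region was its end minus its start in the list. A larval peak fell in a region when they shared at least 1 bp, and only 1 peak, of crol-KO Cg, touched 2 wide regions. Fold enrichments were compared only within a list. The summit pileup, a whole number within a relative tolerance of 0.001, and the local background were solved from the fold enrichment and the p-value for 100% of peaks, and the lowest background gave the reads for a genome of 120 Mb. Since each group had 1 list, no p-value is given. Intervals were exact Clopper-Pearson for shares and Poisson for means. Alternatives were other width minima, other overlap criteria and stricter peaks. Regions named were the 5 widest, the 5 strongest, the 3 with most larval peaks, the 3 widest without one, the strongest of the presence patterns described, the widest per arm, the densest windows and 3 on each side of the width minimum. The regions and the rules for naming them were chosen with earlier results of these data known. Gene annotation of dm3 was not used here. The functions were tested on simulated lists, and the work was done in Python 3.11.15 with numpy 2.4.6, pandas 2.3.3, scipy 1.17.1 and matplotlib 3.10.9.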

Additional observations from a re-analysis of the deposited data

How the results depend on the processing

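Of 65 values computed under the alternatives, 35 stayed within the 95% interval of the main value (for the number of regions, within 1.5 times) and 30 moved. Requiring the larval summit or 50% of the larval peak inside the region, or a larval −log10 q of at least 5, moved none of the shares or means. An S2 −log10 q of at least 5 left all 951 regions. With a width minimum of 1200 bp there were 1590 regions, and WT Crol, crol-KO Crol and WT Cg peaks were present in 80.9%, 79.5% and 76.3%, all 4 lists in 73.2%, with means of 1.04, 1.00, 0.975 and 0.974 peaks of WT Crol, crol-KO Crol, WT Cg and crol-KO Cg. With a minimum of 2000 bp there were 421 regions, and WT Crol, WT Cg and crol-KO Cg were present in 88.1%, 82.7% and 83.4%, all 4 lists in 80.0%, with means of 1.38, 1.28, 1.26 and 1.25. When the larval peak had to cover the S2 summit base, the shares were 76.1%, 72.2%, 67.7% and 68.0%, with all 4 lists at 61.6% and none at 19.9%. Within 250 bp on either side of the summit they were 77.5%, 75.9%, 71.5% and 71.9%, with 66.0% and 18.4%. Both of these settings count a shorter stretch than the region by construction.

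No paired analysis was possible because the replicates of each group were pooled before peaks were called, and no replicate was left out in turn for the same reason. The larval lists rested on 3.42 to 4.89 M reads, and a missing peak says only that no call was made at that depth.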

Other observations

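Outside the 6 sequences analysed, 46 further S2 Crol peaks lay on heterochromatic sequences of dm3, and 2 of them were at least 1500 bp wide. They were not part of the counts above.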
